A study of Mus musculus with 12 samples.

Results

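A named set of 9 hedgehog pathway genes was followed in mouse *Brca2*-deficient medulloblastoma, out of 24091 genes in the expression table. They are the receptor *Ptch1*, the ligand-binding antagonist *Hhip*, the coreceptors *Boc* and *Gas1*, the signal transducer *Smo*, the GLI inhibitor *Sufu*, and the transcription factors *Gli1*, *Gli2* and *Gli3*. The set was given by gene name, with earlier results of these data known, so the share of it that was called is a description. RNA was sequenced from 12 tissue samples in 4 groups of 3. Tumor and adjacent normal cerebellum came from the same 3 Brca2-mut;Trp53-mut mice (GB344, GB359 and GB370), so the members of each pair share an animal. Cerebellum without tumor came from 3 Brca2-mut;Trp53-WT mice (GB361, GB508 and GB512) and from 3 Brca2-WT;Trp53-mut mice (GB517, GB519 and GB520), and these 6 samples served together as controls. The *Brca2* mutation is a loss of exons 3 and 4 through Cre driven by the human *GFAP* promoter in the developing central nervous system, and the *Trp53* mutation is a knockout in the whole animal. Each control group therefore carried 1 of the 2 mutations, and a cerebellum with neither mutation is not analysed here. Whether the Brca2-WT;Trp53-mut mice carried the Cre transgene is not given in the labels. The study calls the controls age-matched, and the age of each mouse is not given in the labels.

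Hedgehog signaling turns on when a secreted ligand such as SHH binds PTCH1, a membrane protein that otherwise holds SMO inactive. BOC, GAS1 and CDON help PTCH1 bind the ligand, while HHIP binds it too and limits its reach. Active SMO releases GLI2 and GLI3 from SUFU. GLI2 is then mainly an activator, GLI3 without signal is cut to a repressor, and *Gli1*, *Ptch1* and *Hhip* are themselves switched on by the pathway. In the developing cerebellum, SHH from Purkinje cells drives the division of granule cell progenitors, the cells in which SHH-type medulloblastoma arises. In the adult cerebellum *Ptch1* and *Gli1* are also expressed in Bergmann glia, the astrocytes that surround Purkinje cells.

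Values are in TPM, an abundance scaled for transcript length and for the total of the library, so levels of different genes can be compared. The limma model was fitted to log2(TPM + 1) and its p-values were adjusted over all genes tested. Genes were called where the log2 fold change was 1 or more in either direction and the adjusted p was under 0.01. SE is the standard error of a log2 fold change. Cell type markers followed the tissue labels. The summed TPM of 8 markers of granule cell progenitors and proliferation was 1365 to 1782 in tumors and 108 to 163 in controls. Of these markers, 8 of 8 were called higher in tumors, against 14.4% of all genes tested. The progenitor factor *Atoh1* was listed at 0 in 1 control and at no more than 0.212 TPM in the others. Purkinje cell markers summed to 90.1 to 397 TPM in tumors against 5836 to 9728 TPM in controls. Of these, 6 of 6 were called lower in tumors, against 21.5% of all genes tested. The adjacent cerebella were not alike. Their progenitor markers summed to 637 TPM in GB344, 521 TPM in GB359 and 149 TPM in GB370, so by this sum GB370 lay within the control range and the other 2 lay between controls and tumors. Single markers of GB370 were above all controls, with *Atoh1* at 4.997 TPM and *Barhl1* at 17.9 TPM against at most 14.1 TPM. Tests of some single genes against adjacent tissue are therefore also given without GB344 and GB359. In whole tissue, fewer cells of a type and less RNA per cell cannot be told apart.

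Of the 9 genes, 6 rose in tumors relative to control cerebella and none fell. *Gli1*, *Gli2*, *Smo*, *Hhip*, *Sufu* and *Boc* were called higher, which is 66.7% of the 9 genes against 14.4% of all 16241 genes tested. For *Ptch1*, *Gas1* and *Gli3* no difference was called, and 0 of 9 were called lower, against 21.5% of all genes. The median log2 fold change of the 9 genes was 1.46, and that of all genes was −0.11. Quantile normalization moved the median of all genes to 0.04. The 6 genes that rose lay between 1.34 (*Boc*) and 3.73 (*Gli2*) above the median of all genes on the log2 scale. In each of the 6, which were picked by their calls, every tumor was above every control. The share of all genes without overlap was not computed, and 11935 of the 16241 genes had an unadjusted limma p under 0.05.

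**Figure D1:**
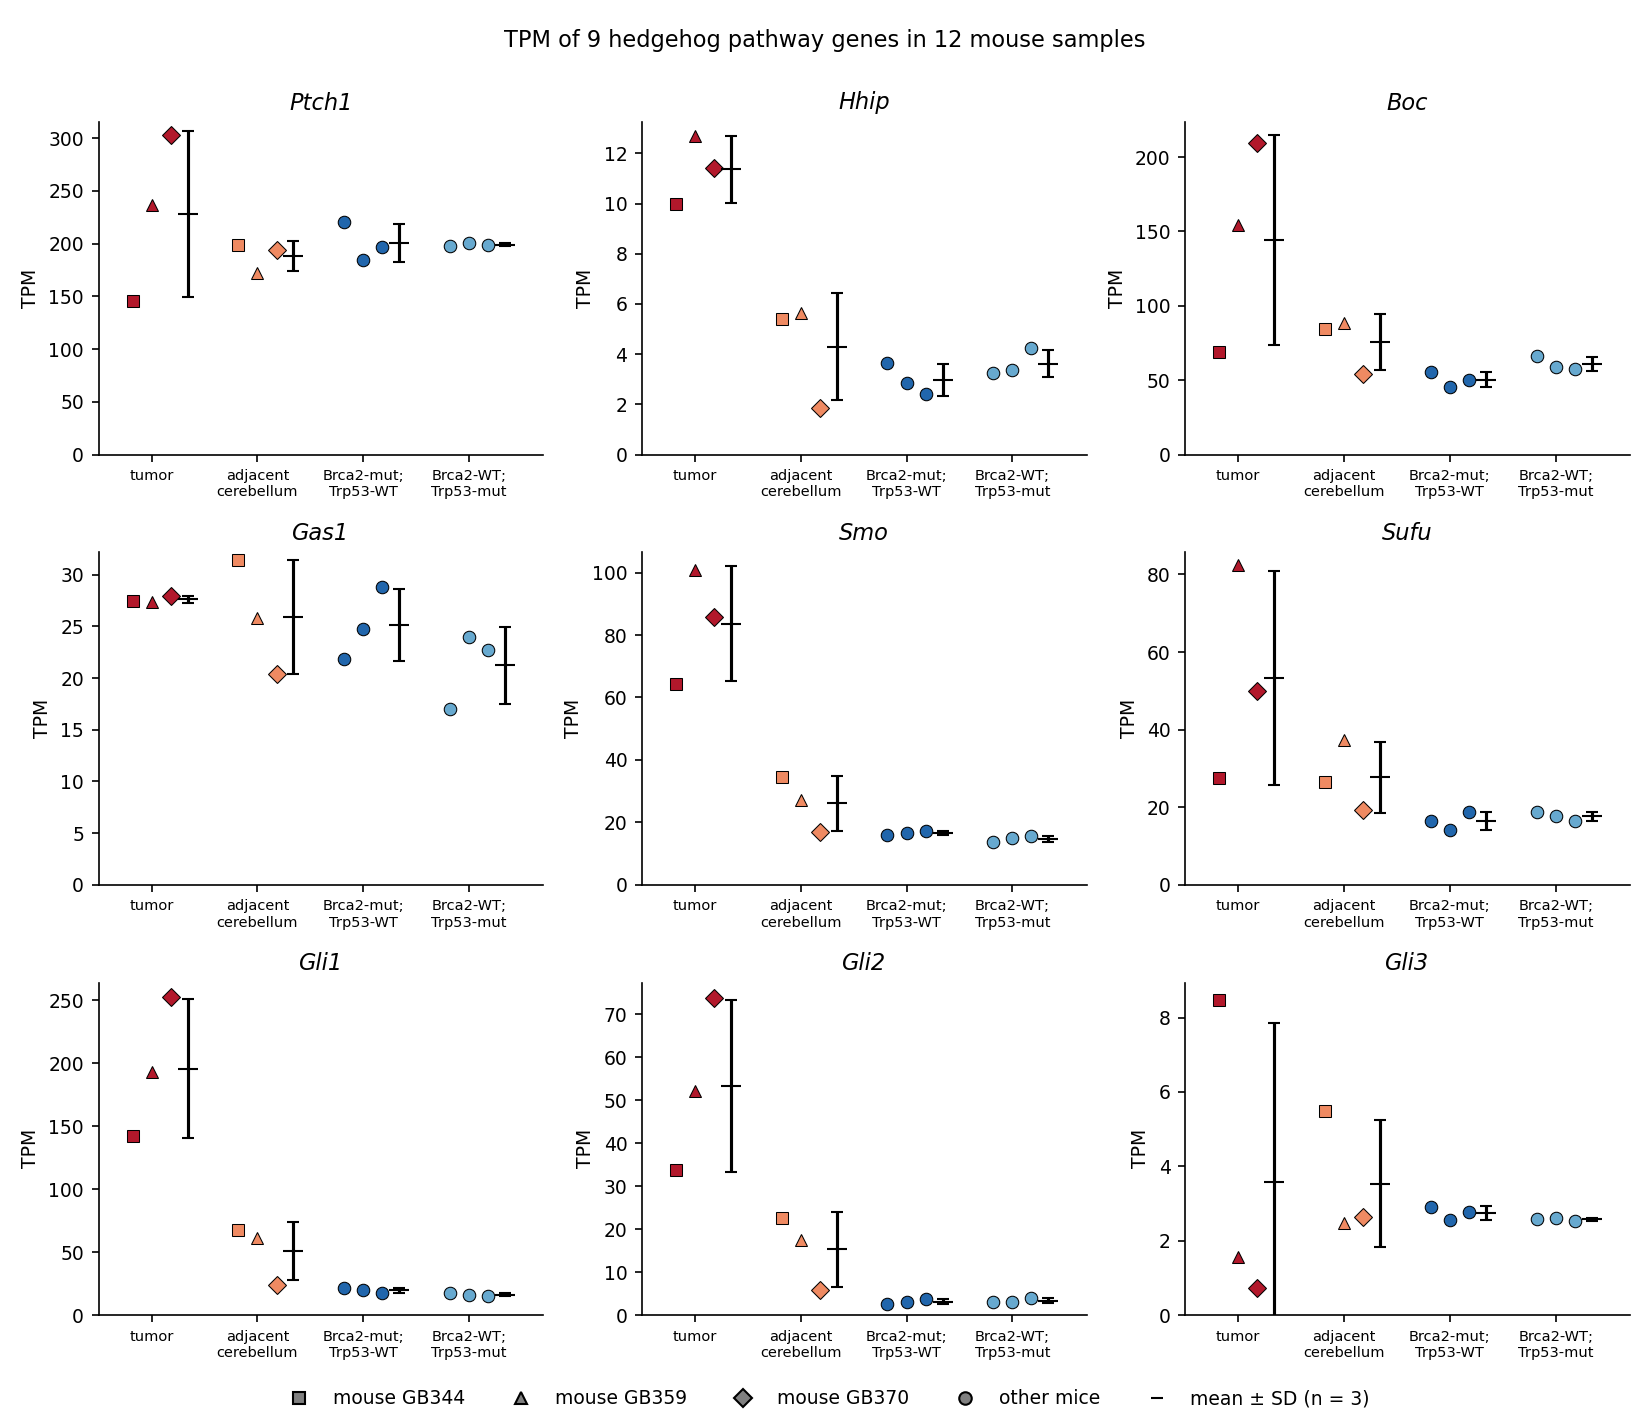
TPM of the 9 genes in each of the 12 samples, with the mean and SD of each group of 3, on linear axes that start at 0 (the lower SD bar of Gli3 in tumors is cut at 0). Symbols mark the 3 mice that gave both tumor and adjacent cerebellum. Tumors stand apart from controls in 6 panels, at 142 to 252 TPM against 15.2 to 21.4 TPM for Gli1, and overlap them for Ptch1, Gas1 and Gli3.

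The DNA just before a start site is shown for 3 genes with different outcomes: *Gli2*, which had the largest fold change of the 9, *Smo*, which also rose, and *Ptch1*, for which no change was called. Each run is the 250 bases upstream of the start that the RefSeq promoter table gives in GRCm38.p6, written 5′ to 3′ on the strand of the gene, with GC boxes (GGGCGG or its reverse CCGCCC) in capitals. The *Ptch1* run is chr13:63565736-63565985 on the minus strand, the *Smo* run is chr6:29735247-29735496 on the plus strand, and the *Gli2* run is chr1:119053620-119053869 on the minus strand. The *Smo* run abuts the 5′ end of its gene, whereas the *Ptch1* and *Gli2* runs lie within the gene spans given below, which reach further upstream than the start used. None of the 3 runs overlaps an annotated exon.
Ptch1: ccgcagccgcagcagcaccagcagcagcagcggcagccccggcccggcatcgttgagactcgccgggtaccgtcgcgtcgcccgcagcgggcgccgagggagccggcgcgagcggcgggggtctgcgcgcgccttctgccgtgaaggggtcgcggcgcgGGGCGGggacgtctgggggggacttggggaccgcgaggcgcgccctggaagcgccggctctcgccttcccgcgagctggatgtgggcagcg
Smo: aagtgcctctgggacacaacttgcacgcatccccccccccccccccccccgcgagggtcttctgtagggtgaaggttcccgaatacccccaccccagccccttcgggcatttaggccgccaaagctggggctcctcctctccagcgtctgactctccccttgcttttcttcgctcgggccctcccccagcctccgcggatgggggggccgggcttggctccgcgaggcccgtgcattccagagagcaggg
Gli2: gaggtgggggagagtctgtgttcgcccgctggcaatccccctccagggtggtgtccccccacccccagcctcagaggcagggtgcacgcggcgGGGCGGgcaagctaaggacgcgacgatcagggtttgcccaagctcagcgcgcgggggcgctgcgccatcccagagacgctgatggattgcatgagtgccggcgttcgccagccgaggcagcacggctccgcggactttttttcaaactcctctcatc
The *Ptch1* run holds 41 CpG dinucleotides and is 78.4% G or C, against 15 CpG and 68.4% for *Smo* and 22 CpG and 67.2% for *Gli2*. A GC box is present in the *Ptch1* and *Gli2* runs and absent from the *Smo* run. Upstream runs could be matched for 7 of the 9 genes. A GC box was found in 6 of these 7, against 32.7% of 32851 promoters of the same length. The 9-letter GLI motif GACCACCCA (reverse TGGGTGGTC) was found in 0 of 7, against 0.225% of all promoters, and the motif CAGCTG, which reads the same on both strands, in 0 of 7 against 13.001%. These matches describe letters in this window and were not tested against expression.

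*Ptch1*, the receptor that holds SMO inactive (Entrez Gene 19206, chromosome 13 from 63508328 to 63573460, GRCm38.p6), was among the most abundant of the 9 genes in every group. Tumors had 146 TPM in GB344, 237 TPM in GB359 and 303 TPM in GB370. Controls had 220, 184 and 197 TPM in the Brca2-mut;Trp53-WT mice and 197, 200 and 199 TPM in the Brca2-WT;Trp53-mut mice. The control values lay close together, whereas 1 tumor was below all controls and the other 2 were above all of them. The log2 fold change of *Ptch1* was 0.13 (95% interval −0.27 to 0.54, limma adjusted p = 0.527), so the interval does not reach the size of change seen in *Gli1*. This value rested on single tumors. It was 0.42 without tumor GB344 (limma adjusted p = 0.00373, below the fold change minimum) and −0.10 without tumor GB370 (limma adjusted p = 0.583). A gene-level TPM counts transcripts with and without a mutation alike, so it does not show whether the *Ptch1* RNA of a tumor encodes a working receptor. Markers of astrocytes and Bergmann glia, which express *Ptch1* in the adult, moved in the same comparison. Of 9 such markers 7 were called lower and 1 higher in tumors, where 21.5% and 14.4% of all genes were. Their summed TPM was 459 to 702 in tumors against 3109 to 4235 in controls, and none was at 0. Their part in the *Ptch1* value was not tested.

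*Hhip*, the membrane-bound antagonist that binds hedgehog ligands, was the least abundant in tumors of the genes that rose. In tumors it was at 10.004, 12.7 and 11.4 TPM (GB344, GB359 and GB370). Control values were 3.65, 2.85 and 2.42 TPM in Brca2-mut;Trp53-WT mice and 3.26, 3.38 and 4.23 TPM in Brca2-WT;Trp53-mut mice. The 3 tumors were close to each other and well above the highest control. *Hhip* rose by 1.53 on the log2 scale (SE 0.15, limma adjusted p = 6.42e-06), from 3.30 ± 0.630 TPM (SD, n = 6) to 11.4 ± 1.34 TPM (SD, n = 3).

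The coreceptors differed from each other. *Boc* had 69.2 TPM in tumor GB344, 154 TPM in GB359 and 209.6 TPM in GB370, against 45.2 to 66.0 TPM in the 6 controls. The GB344 tumor was only just above the highest control, and the other tumors were far above it. *Boc* rose by 1.23 (SE 0.28, limma adjusted p = 0.00253), and this was the least stable of the 6 calls. It was lost without tumor GB359 (1.11, limma adjusted p = 0.0142) or without tumor GB370 (0.90, limma adjusted p = 0.0119). It was also lost against the Brca2-mut;Trp53-WT mice alone (1.37, limma adjusted p = 0.0160) and against the Brca2-WT;Trp53-mut mice alone (1.10, limma adjusted p = 0.0379).

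*Gas1*, a coreceptor anchored to the membrane by a lipid, had the narrowest spread among tumors. Its tumor values were 27.5, 27.4 and 28.0 TPM, a spread of 0.02 (SD on the log2 scale), and its control values ran from 17.0 to 28.8 TPM. All 3 tumors lay within the control range. The log2 fold change was 0.26 (95% interval −0.05 to 0.57, limma adjusted p = 0.117).

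*Smo*, the 7-pass membrane protein that carries the signal inward (Entrez Gene 319757, chromosome 6 from 29735497 to 29761366), had 64.3 TPM in tumor GB344, 101 TPM in GB359 and 85.9 TPM in GB370. The Brca2-mut;Trp53-WT controls had 16.1, 16.6 and 17.2 TPM, and the Brca2-WT;Trp53-mut controls had 13.8, 14.9 and 15.5 TPM. Even the lowest tumor was well above the highest control. The log2 fold change of *Smo* was 2.32 (SE 0.13, limma adjusted p = 1.27e-07), with group means of 83.7 ± 18.4 TPM (SD, n = 3) and 15.7 ± 1.23 TPM (SD, n = 6).

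*Sufu*, which binds GLI proteins and keeps them out of the nucleus, rose as well. The tumors had 27.4 TPM in GB344, 82.3 TPM in GB359 and 49.8 TPM in GB370, and the 6 controls had 14.2 to 18.9 TPM. All tumors were above all controls, and the tumors themselves differed 3.001-fold. *Sufu* rose by 1.46 (SE 0.26, limma adjusted p = 0.000579). Against the Brca2-WT;Trp53-mut mice alone the value was 1.41 and missed the threshold (limma adjusted p = 0.0122).

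*Gli1*, a target and amplifier of the pathway (Entrez Gene 14632, chromosome 10 from 127329882 to 127341579), was the GLI factor with the highest level in every group. It had 142 TPM in tumor GB344, 193 TPM in GB359 and 252 TPM in GB370. Controls had 21.4, 20.04 and 17.6 TPM in Brca2-mut;Trp53-WT mice and 17.4, 15.6 and 15.2 TPM in Brca2-WT;Trp53-mut mice. The tumor mean was 10.9 times the control mean, and the groups were far apart. In limma *Gli1* rose by 3.35 (SE 0.17, adjusted p = 6.12e-08).

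*Gli2*, the main activator among the GLI proteins that wait on signal (Entrez Gene 14633, chromosome 1 from 118834061 to 119054405), changed from a low level. Tumors had 33.9, 52.2 and 73.8 TPM in GB344, GB359 and GB370, against 2.67, 2.92 and 3.75 TPM in Brca2-mut;Trp53-WT mice and 3.09, 3.01 and 3.93 TPM in Brca2-WT;Trp53-mut mice. The tumor mean was 16.5 times the control mean. *Gli2* rose by 3.62 (SE 0.21, limma adjusted p = 1.40e-07).

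*Gli3*, the main repressor (Entrez Gene 14634, chromosome 13 from 15463723 to 15730026), had no called difference and was the most variable of the 9 among tumors. It had 8.49 TPM in tumor GB344, 1.55 TPM in GB359 and 0.724 TPM in GB370. Controls had 2.53 to 2.91 TPM. Tumor GB344 was thus above all 6 controls, and the other 2 tumors were below all 6. The log2 fold change was −0.08 (95% interval −1.01 to 0.86, limma adjusted p = 0.879), and its sign turned with the tumor left out and with the scaling. With 3 tumors this different, the interval takes in changes of both signs.

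**Figure D2:**
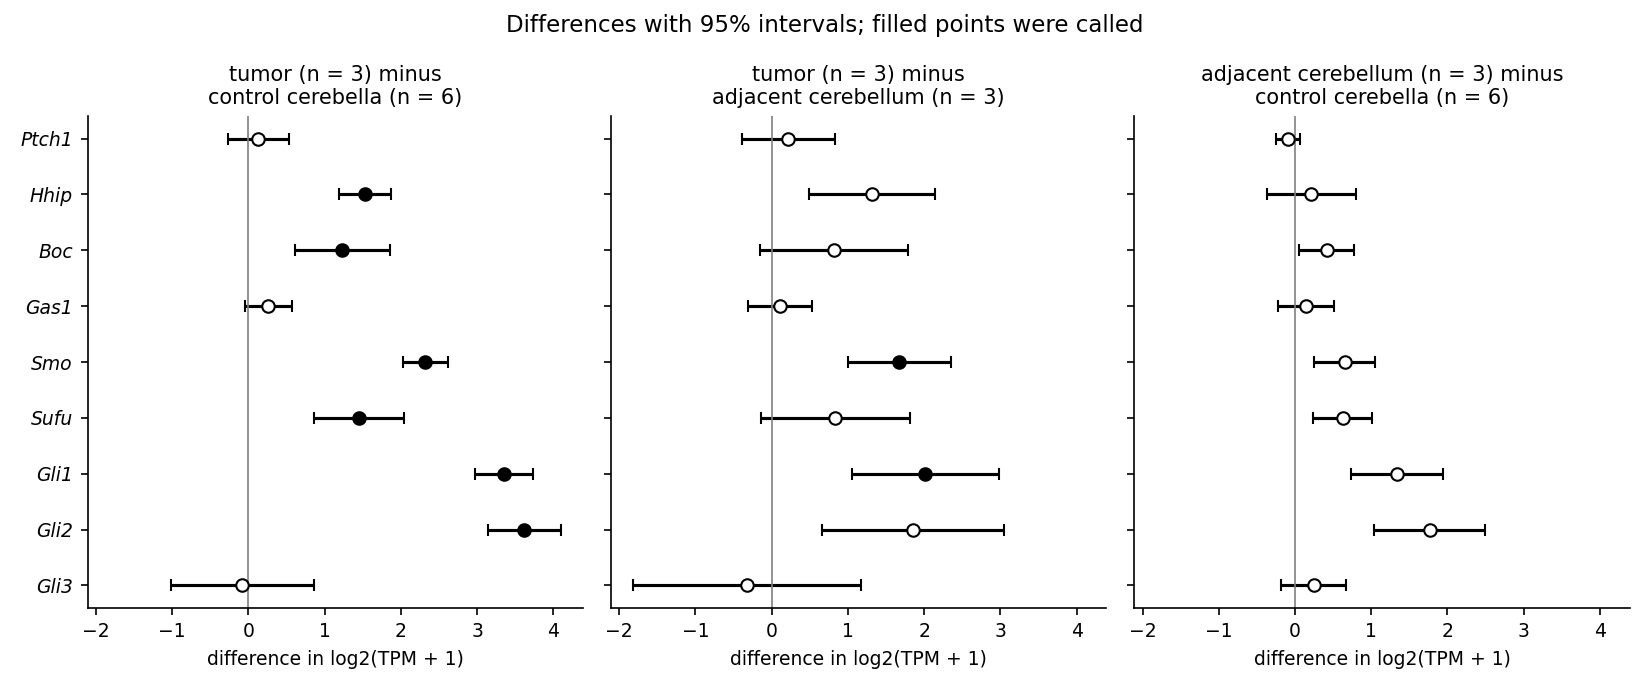
Difference in mean log2(TPM + 1) of the 9 genes with 95% intervals from limma, in 3 comparisons. Filled points were called (adjusted p under 0.01 and absolute difference of at least 1): 6 genes in tumors against controls, Gli1 and Smo in tumors against adjacent cerebellum, and none in adjacent cerebellum against controls.

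Against the adjacent cerebellum of the same mice, 2 of the 9 genes were called higher in tumors, *Gli1* and *Smo*, which is 22.2% against 4.76% of all 15845 genes tested. None was called lower, against 18% of all genes. The median log2 fold change of the 9 genes was 0.83, and that of all genes was −0.14. Median-of-ratios scaling moved the median of all genes to 0.02, and quantile normalization moved it to 0.12. Over all genes, 755 were called higher and 2852 lower, whereas median-of-ratios scaling gave 1296 and 2476, and quantile normalization gave 1603 and 2192.

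*Gli1* was higher in the tumor than in the adjacent tissue of each mouse, by 2.11 times in GB344, 3.16 times in GB359 and 10.4 times in GB370. Its log2 fold change was 2.01 (SE 0.41, limma adjusted p = 0.00678). With the mouse as a replicate block the paired fit gave the same fold change with an adjusted p of 0.0170, so the *Gli1* call was lost and the number of genes called among the 9 fell from 2 to 1. *Smo* was higher in the tumor by 1.86, 3.72 and 5.10 times in the same mice, with a log2 fold change of 1.67 (SE 0.28, limma adjusted p = 0.00349), and stayed called with the block. Both calls rested on single samples. *Gli1* was lost without tumor GB344 (limma adjusted p = 0.0105), tumor GB359 (0.0234), tumor GB370 (0.0256) or adjacent GB359 (0.0145), with log2 fold changes from 1.81 to 2.22. *Smo* was lost without tumor GB359 (limma adjusted p = 0.0138), tumor GB370 (0.0150) or adjacent GB359 (0.0128), with log2 fold changes from 1.53 to 1.73. Without adjacent GB344 and GB359 together the adjacent arm held 1 sample, assumed to vary like the tumors. *Smo* then had a larger difference with a higher p (2.22, limma adjusted p = 0.0116), and *Gli1* was at 2.93 (limma adjusted p = 0.00977).

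*Gli2* and *Hhip* were also higher in the tumor than in the adjacent tissue of all 3 mice, and neither was called. *Gli2* was 1.499, 2.97 and 12.9 times higher in GB344, GB359 and GB370 (log2 fold change 1.85, limma adjusted p = 0.0206). *Hhip* was 1.85, 2.25 and 6.20 times higher (1.32, limma adjusted p = 0.0187). Against adjacent GB370 alone these differences were 2.95 for *Gli2* (limma adjusted p = 0.0148) and 2.12 for *Hhip* (limma adjusted p = 0.0119). The mice did not agree for *Boc*, which was lower in tumor than adjacent tissue in GB344 (69.2 against 84.4 TPM) and higher in the others (154 against 88.4 TPM, and 209.6 against 54.0 TPM). *Sufu* was nearly level in GB344 (27.4 against 26.4 TPM) and higher in the tumors of GB359 and GB370. Neither *Boc* (log2 fold change 0.82, limma adjusted p = 0.138) nor *Sufu* (0.83, limma adjusted p = 0.133) was called. Over the alternatives *Boc* ranged from 0.48 to 1.27 and *Sufu* from 0.46 to 1.28. *Ptch1* had 199, 172 and 194 TPM in the adjacent tissue of GB344, GB359 and GB370, with GB359 below all controls and the others within the control range. Its tumor value was below the adjacent value in GB344 and above it in the other mice. Its log2 fold change was 0.22 (95% interval −0.39 to 0.83, limma adjusted p = 0.508), and 0.18 against adjacent GB370 alone (limma adjusted p = 0.779).

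The adjacent cerebella themselves stood above the controls for several of the 9 genes, and none passed the threshold, where 0.236% of 16091 genes were called (38 genes, with 5551 at an unadjusted limma p under 0.05). The 9 genes had 5 at an unadjusted p under 0.05, namely *Gli1*, *Gli2*, *Smo*, *Sufu* and *Boc*. Adjacent *Gli1* was 67.2 TPM in GB344, 61.0 TPM in GB359 and 24.2 TPM in GB370, each above the highest control at 21.4 TPM. The log2 fold change was 1.34 (SE 0.27, limma adjusted p = 0.0175). Adjacent *Gli2* was 22.6, 17.6 and 5.72 TPM in the same mice, again above all 6 controls, with a log2 fold change of 1.77 (SE 0.33, limma adjusted p = 0.0143). Adjacent *Smo* was 34.5, 27.1 and 16.8 TPM, and the GB370 value fell inside the control range (0.65, limma adjusted p = 0.0393).

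The 3 adjacent samples differed from each other. Without adjacent GB370, *Gli1* (1.79, limma adjusted p = 7.08e-05) and *Gli2* (2.32, limma adjusted p = 4.65e-05) were called higher than controls. Without adjacent GB344 and GB359, none was called, and the differences of *Gli3*, *Hhip*, *Boc* and *Gas1* turned negative. The position of each adjacent sample between control and tumor was expressed as its excess over the control mean in percent of the excess of the tumor of that mouse. For *Gli1* this was 39.8% in GB344, 24.6% in GB359 and 2.69% in GB370. The summed progenitor and proliferation markers gave 41.2%, 23.8% and 1.38% in the same order. *Smo* gave 38.7%, 13.4% and 1.64%, and *Gli2* gave 63.2%, 29.3% and 3.52%. *Sufu* gave 90.0%, 31.1% and 6.82%, *Hhip* gave 31.6%, 24.8% and −18.0%, and *Boc* gave 212%, 33.2% and −0.968%. The order of the mice was the same for all of these genes and the markers, and the percentages differed between genes. The part of the progenitor markers in the values of these genes in adjacent tissue was not tested.

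**Figure D3:**
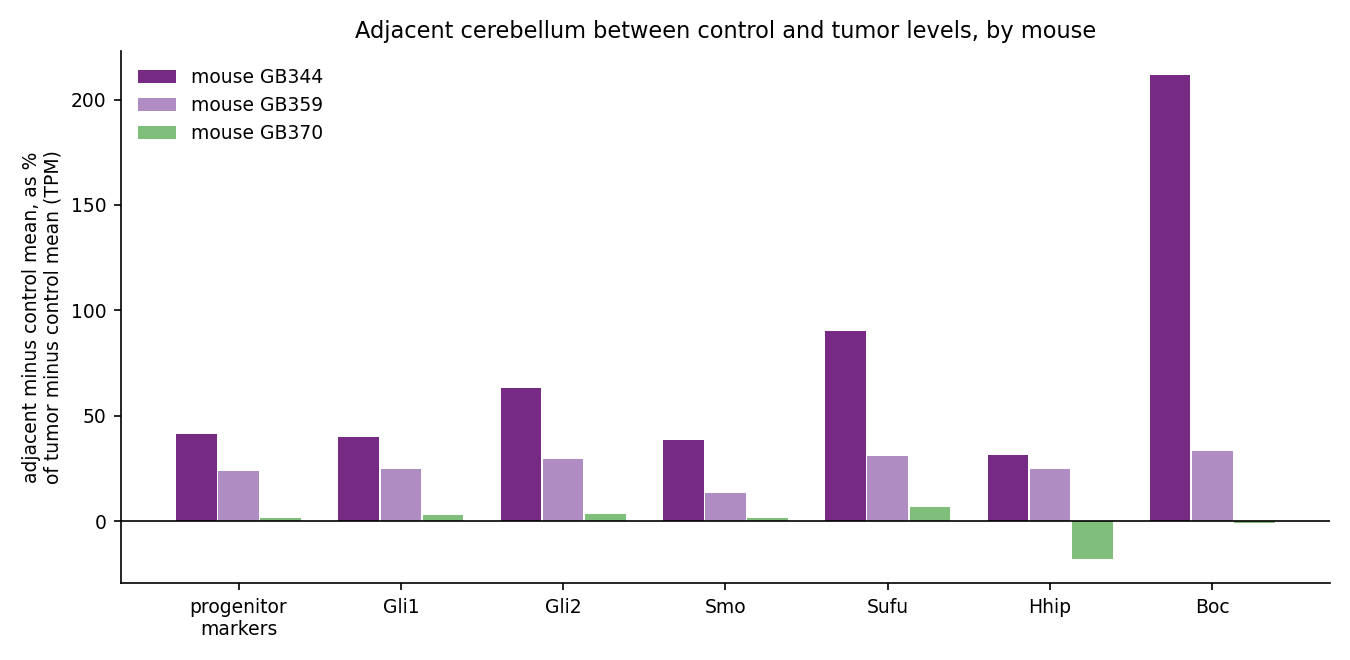
Excess of adjacent cerebellum over the mean of the 6 controls, in percent of the excess of the tumor of the same mouse (TPM), for the summed progenitor and proliferation markers and the 6 genes that rose in tumors. Bars are single mice. GB370 lies near 0 for the markers (1.38%) and Gli1 (2.69%), and Boc in GB344 exceeds 100% because its adjacent value was above its tumor value.

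Between the control genotypes, none of the 9 genes was called, where 0.0578% of 15575 genes were called by limma (9 genes, with 3123 at an unadjusted p under 0.05). *Gli1* and *Boc* were at an unadjusted p under 0.05, in opposite directions. *Gli1* was 19.7 ± 1.94 TPM in Brca2-mut;Trp53-WT mice and 16.1 ± 1.14 TPM in Brca2-WT;Trp53-mut mice (SD, n = 3 each), a log2 difference of 0.28 (95% interval 0.03 to 0.52, limma adjusted p = 0.204). *Boc* was 50.4 ± 5.23 and 60.7 ± 4.59 TPM (SD, n = 3 each), a log2 difference of −0.27 (95% interval −0.49 to −0.05, limma adjusted p = 0.187). The groups did not overlap for *Gli1*, *Smo* or *Boc*, and the share of all genes that did not overlap was not computed. All of these differences were small beside those of the tumors. *Ptch1* was 200.5 ± 18.2 and 198.8 ± 1.32 TPM (SD, n = 3 each), with an interval of −0.16 to 0.18 around a log2 difference of 0.01. The summed TPM of 5 marker lists separated the same groups. The sums of progenitor and proliferation, oligodendrocyte, endothelial and pericyte, and fibroblast and meninges markers overlapped. Choroid plexus markers were at 19.2 to 876 TPM in Brca2-mut;Trp53-WT mice and 3960 to 5179 TPM in Brca2-WT;Trp53-mut mice. Purkinje cell markers were at 8044 to 9728 and 5836 to 6374 TPM, astrocyte and Bergmann glia markers at 3665 to 4235 and 3109 to 3385 TPM, mature granule cell markers at 2948 to 3481 and 3495 to 3910 TPM, and microglia markers at 84.6 to 150.2 and 77.2 to 84.2 TPM, in the same order of groups. Their part in these values was not tested.

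Because TPM accounts for length and a ratio within a sample does not depend on the scaling of that sample, 3 ratios were compared between tumors and controls with an exact permutation test over the 84 ways to split the samples. *Gli1* approached *Ptch1* in tumors, with a *Gli1*:*Ptch1* ratio of 0.972, 0.816 and 0.833 in GB344, GB359 and GB370. It was 0.338, 0.355 and 0.125 in adjacent tissue and 0.0765 to 0.109 in controls. On the log2 scale tumors were 3.28 higher than controls, with 3 of 3 tumors above all 6 controls (exact permutation p = 0.0119, two-sided, the smallest this design can give, and 0.0119 after adjustment over 3 ratios). Although *Ptch1* and *Gli1* each varied among tumors, their ratio had an SD of 0.14 in tumors and 0.19 in controls on the log2 scale. *Smo*:*Ptch1* was 0.440, 0.426 and 0.284 in tumors and 0.0699 to 0.0899 in controls, a log2 difference of 2.26 with the same p and adjusted p. *Gli2*:*Gli3*, the activator over the main repressor, was 3.99 in tumor GB344, 33.7 in GB359 and 102 in GB370, against 0.915 to 1.55 in controls, a log2 difference of 4.23 with the same p and adjusted p. The tumors were far apart in this ratio and all above the controls. Each ratio sets a gene called higher in these same samples over a gene without a called change. The ratio tests therefore largely restate those calls and are no separate evidence.

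**Figure D4:**
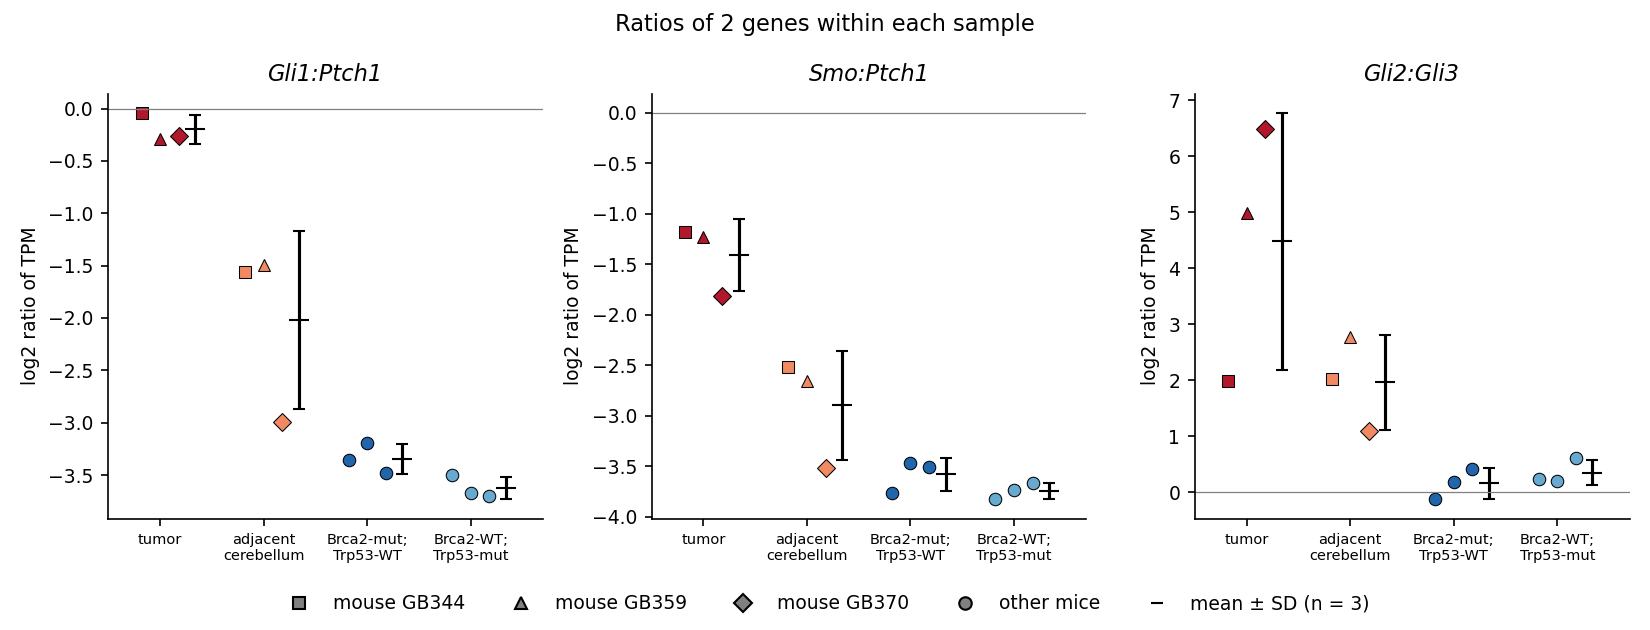
Log2 ratio of the TPM of 2 genes within each of the 12 samples (0.1 TPM added to each gene), with the mean and SD of each group of 3. A line marks equal TPM. Tumors are above all controls in each panel, by 3.28, 2.26 and 4.23 on the log2 scale, and the 3 tumors lie close together for Gli1:Ptch1 and far apart for Gli2:Gli3.

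The median spread among tumors was larger for the 9 genes than for all genes tested, which were not matched for level. The median SD over the 3 tumors was 0.53 for the 9 genes and 0.24 for all 16241 genes on the log2(TPM + 1) scale. In controls these were 0.17 and 0.15. The spread was widest for *Gli3* (SD 1.29), *Boc* (0.82) and *Sufu* (0.78). It was narrowest for *Gas1* (0.02) and *Hhip* (0.16), both below the median of all genes. Tumor GB344 had the lowest value of the 3 for *Gli1*, *Gli2*, *Ptch1*, *Smo*, *Sufu*, *Hhip* and *Boc* and the highest for *Gli3*.

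Over the 12 samples, which share animals and fall into tumor and non-tumor tissue, *Gli1* followed *Gli2* (Pearson's r = 0.985) and *Smo* (0.982). These values describe the samples and carry no p. Among 16489 other genes, those most like *Gli1* included *E130114P18Rik* (0.997) and *D630003M21Rik* (0.994). Those most like *Gli2* were *Rad51ap1*, *Adamts14* and *Lrig3* (each 0.995). *Smo* was followed most closely by *Cbfb* (0.995), *Phf14* (0.994) and *Wdpcp* (0.994), the last a gene of cilium formation. *Hhip* was followed by *Ppip5k2* (0.996), *Psip1* (0.983) and *Mob1a* (0.982). *Boc* had *Ptms* (0.982), *Pitrm1* (0.9798) and *Esyt1* (0.9798), and *Sufu* had *Zbtb42* (0.981), *Upf3a* (0.981) and *Galnt2* (0.9804). The genes without a called change had lower likeness: *Ptch1* with *Emc3* (0.946), *Bcar3* (0.902) and *Ppfia2* (0.901), *Gli3* with *Efna5* (0.959), *Irx5* (0.945) and *Adcyap1* (0.939), and *Gas1* with *Blnk* (0.840), *Ccdc96* (0.819) and *Tmem177* (0.818). Many genes separate tumor from other tissue, so a called gene has many to match closely. This contrast goes with the calls and is no separate result.

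On chromosome 13 lie *Ptch1*, *Gli3* and *Gas1*, the 3 genes with no called change in tumors. The median log2 difference between each tumor and the controls over the genes of chromosome 13, relative to that of all genes, was −0.30 in GB344, −0.22 in GB359 and −0.25 in GB370. This was the lowest or second lowest of the 19 autosomes in each tumor. The 6 controls ranged from −0.05 to 0.03 for this chromosome. The adjacent cerebella of the same mice were at −0.12, −0.10 and −0.06, the lowest of the 19 autosomes in each of them. *Ptch1* differed from the control mean by −0.45, 0.25 and 0.60 in the same tumors, *Gas1* by 0.25, 0.25 and 0.28, and *Gli3* by 1.37, −0.52 and −1.08. Chromosome 19, which holds *Sufu*, was at −0.48 in tumor GB344, −0.12 in GB359 and −0.25 in GB370. *Sufu* was 0.66, 2.21 and 1.499 above the control mean in these tumors. As given above, tumor GB344 was also the lowest for *Gli1*, *Gli2*, *Ptch1*, *Smo*, *Hhip* and *Boc*. How this bears on the *Sufu* value was not tested. Chromosome 6, which holds *Smo*, was at 0.06 in GB344, 0.22 in GB359 and 0.34 in GB370. *Smo* was 1.97, 2.62 and 2.38 above the control mean in these tumors. Chromosome 8, which holds *Hhip*, was at 0.06, 0.34 and 0.12 in the same order, against −0.03 to 0.03 in controls. *Hhip* was 1.37, 1.68 and 1.54 above the control mean. DNA copy number was not analysed here, and the part of the chromosome in these values was not tested.

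**Figure D5:**
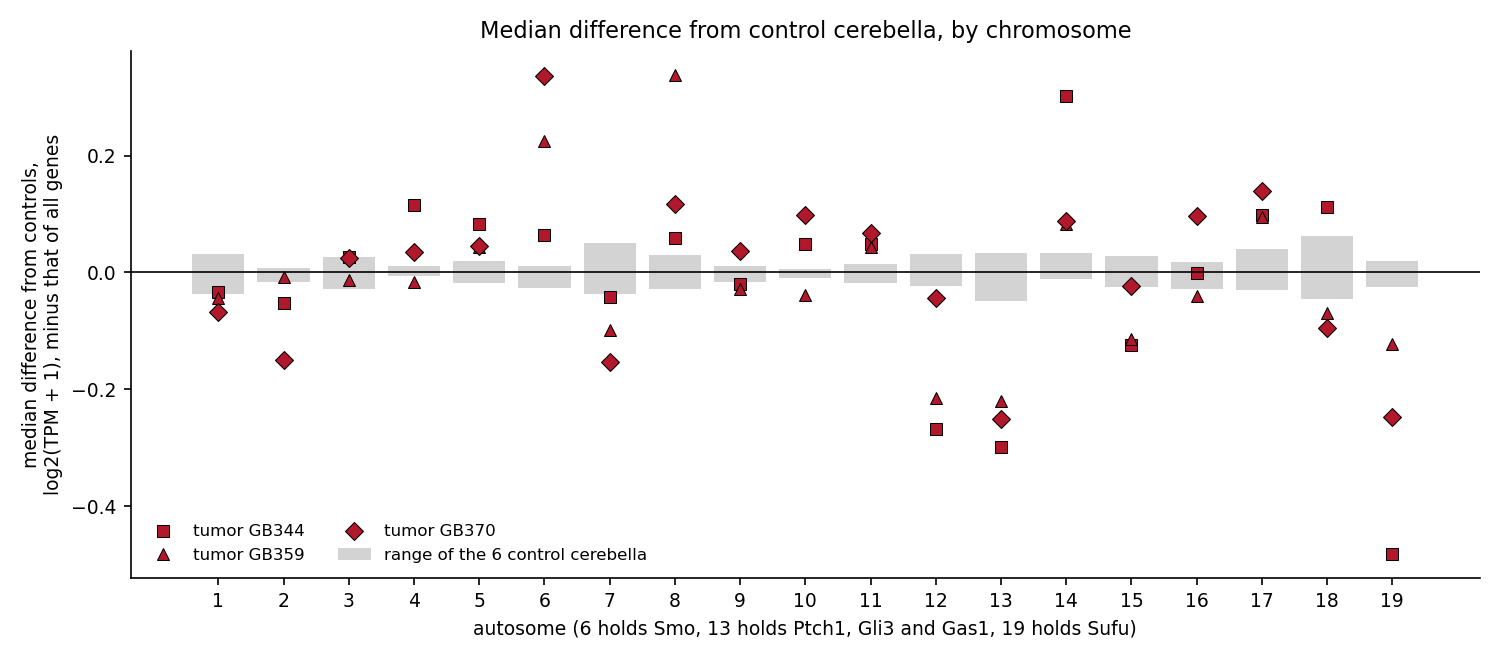
Median difference from the control mean over the genes of each autosome, on log2(TPM + 1) and relative to the median of all genes, in the 3 tumors (symbols) and the 6 controls (grey bars, lowest to highest). Chromosome 13, with Ptch1, Gli3 and Gas1, is between −0.30 and −0.22 in the tumors, and chromosome 19, with Sufu, is at −0.48 in tumor GB344.

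The rest of the pathway was read from lists of other hedgehog genes. Of 8 ligand and ligand-release genes 5 could be tested in tumors against controls, and 0 were called higher and 2 lower, where 14.4% of all genes were called higher and 21.5% lower. *Shh*, the ligand made by Purkinje cells, had 0.672 TPM in tumor GB344, 0.820 TPM in GB359 and 0.766 TPM in GB370, against 5.94 to 12.98 TPM in controls. It fell by 2.34 on the log2 scale (SE 0.21, limma adjusted p = 2.64e-06). Adjacent *Shh* was 5.71 to 6.37 TPM. Purkinje cell markers fell in the same comparison, as given above, and their part was not tested. *Scube1*, of a family that helps release the ligand, fell by 1.23.

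Of 7 other receptors and binding proteins 6 could be tested, with 4 called higher and 2 lower, where 14.4% and 21.5% of all genes were. *Gpc3*, a glypican, rose by 3.44. Its level was 90.3 TPM in tumor GB344, 10.04 TPM in GB359 and 29.4 TPM in GB370, against 1.47 to 2.63 TPM in controls. The tumors differed widely in *Gpc3*, and 5 fibroblast and meninges markers (1 called higher, none at 0) summed to 187, 35.2 and 97.3 TPM in these tumors in the same order, against 50.0 to 58.2 TPM in controls. Their part in the *Gpc3* value was not tested. *Evc* (2.31) and *Evc2* (2.20), which act with SMO at the cilium, rose too, and so did *Gpr161* (1.18), a ciliary receptor that restrains the pathway. *Cdon*, the coreceptor related to *Boc*, moved the other way. It had 1.33, 2.41 and 2.36 TPM in tumors and 10.6 to 16.6 TPM in controls, with all tumors below all controls, and fell by 2.28 (SE 0.18, limma adjusted p = 1.17e-06). The glypican gene *Gpc5* fell by 1.71. Against adjacent tissue *Evc* (1.32, limma adjusted p = 0.00224) and *Evc2* (1.55, limma adjusted p = 0.00744) were called higher and *Cdon* lower (−2.12, limma adjusted p = 0.00289). Against adjacent GB370 alone the differences were 1.67, 2.17 and −2.22, and none was called (limma adjusted p = 0.0126, 0.0158 and 0.0146).

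Of 10 intracellular regulators, 2 were called higher and 2 lower in tumors against controls, and 6 were not called, shares close to the 14.4% and 21.5% of all genes. *Dyrk2*, a kinase that acts on GLI factors, rose by 1.91, and *Kif7*, a kinesin of the cilium tip, rose by 1.33. *Spop*, which marks GLI proteins for degradation, fell by 1.61, and *Btrc*, needed to process GLI3, fell by 1.37. Of 7 genes known to be induced by hedgehog in granule cell progenitors, 6 were called higher, against 14.4% of all genes, and none lower, with a median log2 fold change of 5.18. The 8 progenitor and proliferation markers, all called higher, had a median of 5.29, and their part in these values was not tested. The largest were *Mycn* (6.50, limma adjusted p = 7.56e-08) and *Ccnd2* (6.15, limma adjusted p = 6.34e-07). *Mycn* was highest in tumor GB344 (1133 TPM, against 356 and 343.9 TPM in GB359 and GB370), the tumor in which *Gli1* and *Gli2* were lowest. Against adjacent tissue 0 of the 7 induced genes were called, where 4.76% of all genes were called higher and 18% lower. *Mycn* was at 3.39 there (limma adjusted p = 0.0200). The count of 0 is for the fit with all adjacent samples. Against adjacent GB370 alone the differences were 5.44 for *Mycn*, 4.61 for *Sfrp1*, 4.47 for *Ccnd2* and 4.30 for *Foxm1*. They were 3.52 for *Ccnd1*, 1.39 for *Bmi1* and −0.82 for *Igf2*.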

How the data were processed

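Poly(A) RNA of 12 mouse tissue samples was sequenced. The authors quantified transcripts with Salmon 0.8.1 on mm10 knownGene transcripts and summed them to genes. The deposited values are TPM for 24091 genes with each column summing to between 999793 and 999876. Use of strand in the counting is not given in the sources used here, and exons of *Gli1*, *Gli3*, *Hhip* and *Gas1* overlap genes on the other strand. TPM holds no read counts, so depth is unknown and errors come from the spread over animals. There were 0 unused sample columns.

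TPM were tested as log2(TPM + 1), which understates changes of low genes, with limma 3.58.1 (lmFit, and eBayes with a trend) in R 4.3.3. The filter kept genes that reached 1 TPM in 3 or more of the samples compared, and all 9 genes passed in all 4 comparisons. Each fit held only the groups compared, with Benjamini-Hochberg adjustment over all genes tested. Calls needed an adjusted p under 0.01 with a log2 fold change of 1 or more in either direction. For 3 ratios 0.1 TPM was added. Python 3.11.15, numpy 2.4.6, pandas 2.3.3 and matplotlib 3.10.9 were used, and the fits were tested on simulated data. Positions and promoters are RefSeq GRCm38.p6, and exon overlaps are from GENCODE M21 of the same build.

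The tumor and adjacent samples are paired by mouse. Deviations from the group means correlated over genes by 0.249, 0.176 and 0.152 within GB344, GB359 and GB370, against −0.16 to 0.02 between mice. With deviations taken from means of 3 samples, positive values within mice push those between mice below 0. The contrast is therefore partly built in, and what the tissues of a mouse share was not tested.

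The 9 genes and the gene lists were chosen with earlier results of these data known. All 9 genes are named, with the 3 genes most like each, *Shh* and *Cdon*, and the 2 largest called changes of each other hedgehog list. *Evc*, *Evc2*, *Gpr161*, *Gpc5*, *Kif7*, *Btrc*, *Atoh1*, *Barhl1*, the other progenitor and proliferation markers, *Ccnd1*, *Foxm1*, *Sfrp1*, *Bmi1* and *Igf2* were named after their values were seen. A gene that the rule also named is not reported here and was taken out of the lists. Alternatives changed the added constant, filter, scaling, trend, threshold, control group, samples fitted, block, and each sample left out in turn. Leaving out adjacent GB344 and GB359 together, and setting adjacent tissue against a single control genotype, were added after seeing the data.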

Additional observations from a re-analysis of the deposited data

How the results depend on the processing

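In tumors against controls the count of genes called among the 9 was 4 to 6 under the alternatives (4 against the Brca2-WT;Trp53-mut mice alone, where *Sufu* and *Boc* were lost), and *Gli1*, *Gli2*, *Smo* and *Hhip* stayed called in all of them. Of the single-gene values in this comparison, 160 kept their direction and call, 5 lost the call and 5 changed sign. *Gli3* turned to 0.0062 with median-of-ratios scaling and 0.085 with quantile normalization, and with 1 sample left out it ranged from −0.80 to 0.43 and *Ptch1* from −0.10 to 0.42. In tumors against adjacent tissue, the count of 2 became 4 with quantile normalization, with all 4 groups in a fit, and at an adjusted p under 0.05 without a fold change minimum, where *Gli2* and *Hhip* joined. It became 1 with no filter on low values (*Smo*), with the mouse as a replicate block (*Smo*), and without adjacent GB344 and GB359 (*Gli1*), which leaves 1 adjacent sample assumed to vary like the tumors. With 1 sample left out it ranged from 0 to 2, and it was 0 without tumor GB359, tumor GB370 or adjacent GB359. The block changed no other call. *Gli3* was 0.036 there with quantile normalization and −1.05 to 0.18 with 1 sample left out, and the leave-one-out ranges were −0.014 to 0.51 for *Ptch1* and −0.044 to 0.26 for *Gas1*. In adjacent tissue against controls, 4 genes passed an adjusted p under 0.05 without a fold change minimum (*Gli1*, *Gli2*, *Smo* and *Sufu*), and 0 to 2 were called with 1 sample left out (2 without adjacent GB370). *Hhip* was −0.00369 with quantile normalization, and *Gli3* ranged from −0.044 to 0.41 with 1 sample left out. Without adjacent GB344 and GB359, *Gli3* was −0.010, *Hhip* −0.58, *Boc* −0.029 and *Gas1* −0.16, with a single adjacent sample assumed to vary like the controls. Between control genotypes, quantile normalization gave *Gli2* 0.046 and *Sufu* 0.0019, and the leave-one-out ranges were −0.061 to 0.067 for *Ptch1*, −0.19 to 0.0012 for *Sufu* and −0.19 to 0.012 for *Gli2*. With adjacent tissue in place of controls, the log2 ratios were 1.82 for *Gli1*:*Ptch1* and 1.49 for *Smo*:*Ptch1* (exact permutation, adjusted p = 0.15 each) and 2.52 for *Gli2*:*Gli3* (adjusted p = 0.3), where 3 samples against 3 cannot give a p under 0.1. Leaving out a tumor moved *Gli2*:*Gli3* between 3.23 and 5.48. The cause of these changes was not tested. Read depth is unknown, so no counting error could be given for low values such as those of *Gli3* and *Hhip*.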
